A study of Mus musculus with 62 samples.

Results

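The transcripts of 10 nuclear genes that build, copy, fuse and divide mitochondria were measured in prefrontal cortex (PFC) and nucleus accumbens (NAc) tissue of stressed and unstressed mice. They were chosen by name, as the rows of the count data whose Ensembl identifiers belong to Ppargc1a, Nrf1, Tfam, Polrmt and Esrra (biogenesis) and to Mfn1, Mfn2, Opa1, Dnm1l and Fis1 (fusion and fission). All 10 were among the 11121 genes counted. All groups were wild-type C57BL/6j mice aged 15 weeks. The methods give their sex as male. Stressed mice went through multimodal chronic restraint stress (mCRS), a daily restraint given under changing conditions, and controls (CTR) were not stressed. There were 15 PFC CTR, 15 PFC mCRS, 16 NAc CTR and 16 NAc mCRS libraries, each from bulk tissue, so that fewer cells of a type and less RNA per cell cannot be told apart.

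Mitochondria carry a small genome of their own (mtDNA), but nearly all of their proteins, including those that read and copy mtDNA, come from nuclear genes. The coactivator PGC-1α works with nuclear respiratory factors and estrogen-related receptors to raise the expression of such genes, among them the factors that transcribe mtDNA. Mitochondria also fuse and divide without pause, and in neurons this balance shapes their transport into axons and dendrites and their removal when damaged. Since the study concerned mitochondrial transcripts after stress, the comparisons below ask whether the genes of this machinery differed with mCRS, between the regions, or with the mtDNA transcripts of the same library.

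The libraries were made by BRB-seq, in which barcoded oligo-dT primers tag the 3′ end of each mRNA before pooling. Totals lay between 945286 and 4857359 counts per library. The 10 genes together took 0.0457% to 0.132% of a library's counts (median 0.0849%), where the 7 mtDNA protein genes in the data took 7.89% to 22.9%. Read copies made by PCR were counted, and replicates differed by far more than counting error: for the 2 most alike libraries of a group, the chi-square per gene was 46.0 to 55.4, where counting alone gives about 1. Region markers followed the labels in all libraries except 1. Summed markers of cortical excitatory neurons lay between 710 and 1540 CPM (counts scaled to a library total of 1e+06) in PFC and between 36.7 and 555 CPM in NAc libraries. Markers of striatal projection neurons lay between 264 and 1267 CPM in the PFC and between 2780 and 8644 CPM in the NAc, except in NAc CTR 7, which held 550 CPM. NAc mCRS 10 stood apart as well, with 22742 CPM of the 2 choroid plexus and ependyma markers in the data, against at most 325 CPM in any other library. Results that rest on these 2 libraries are given with and without them where they change.

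Promoter stretches are shown where they match a motif of known regulators of nuclear mitochondrial genes. RefSeq promoter windows (GRCm38.p6, 250 bases before to 50 after each start) were at hand for all 10 genes and were searched on both strands for 4 motifs. These were the palindromic NRF1 motif (the capitals of the Opa1 stretch), the GABP motif CCGGAAG, the estrogen-related receptor motif AAGGTCA and the cAMP response element TGACGTCA. The NRF1 motif and the cAMP response element read the same on both strands, and no matches overlapped. The GABP motif stood in a window of 5 of the 10 genes (Mfn1, Fis1, Tfam, Polrmt and Dnm1l), against 9.93% of all 27025 genes with a window. The NRF1 motif stood in 1 of them, Opa1, against 1.07% of all genes. Neither of the other motifs was found in these windows, against 5.38% and 2.03% of all genes. The matches that lie outside annotated exons are printed 5′ to 3′ on the strand of the gene, with the motif in capitals.
Mfn1 (chr3:32529418-32529464, plus strand, GABP motif): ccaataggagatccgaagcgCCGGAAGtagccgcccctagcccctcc
Fis1 (chr5:136953237-136953274, plus strand, GABP motif): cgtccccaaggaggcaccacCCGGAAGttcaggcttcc
Polrmt (chr10:79746598-79746644, minus strand, GABP motif on the other strand): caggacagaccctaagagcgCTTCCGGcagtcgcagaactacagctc
Opa1 (chr16:29579255-29579304, plus strand, NRF1 motif): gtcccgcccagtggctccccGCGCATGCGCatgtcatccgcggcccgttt
Relative to the RefSeq start, the GABP matches begin at -44 (Mfn1), -18 (Fis1) and -43 (Polrmt) and the NRF1 match of Opa1 at -59. A match is a description of letters and was not measured as a bound site. The motifs printed were chosen after seeing the data, and genes with more windows had more sequence searched. The shares above are therefore no test of enrichment.

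None of the 10 genes passed the test between mCRS and CTR mice in the PFC. All 10 passed the filter on low counts, 4 had fitted values above and 6 below 0 after mCRS, and 0 had an FDR below 0.05 (edgeR's quasi-likelihood test, Benjamini-Hochberg over all 8916 genes tested), where 0% of all genes did. At an unadjusted p below 0.05 there were also 0 of the 10, against 3.5% of all genes (2.12% higher and 1.38% lower). Without PFC CTR 15 there was 1, Opa1 (log2 fold change 0.66, p = 0.0269, FDR = 0.9998, edgeR). The FDR of each was 0.9997. With DESeq2's Wald test 0 had an adjusted p below 0.05 and 1, Fis1, an unadjusted p below 0.05 (p = 0.0468, adjusted 0.958). The median log2 fold change was -0.08 over the 5 biogenesis genes and -0.10 over the 5 fusion and fission genes, where that of all genes was -0.01. The CPM ranges of CTR and mCRS libraries overlapped for all 10 genes. The share of all genes with such an overlap was not computed, so this is no trait particular to the 10. Summed markers of cortical excitatory neurons ran from 837 through a median of 1247 to 1540 CPM in PFC CTR and from 710 through 982 to 1494 CPM in PFC mCRS libraries. Of these 7 markers, 6 had fitted values below 0 (median log2 fold change -0.36) and 0 an unadjusted p below 0.05, and their part in the PFC values was not tested.

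**Figure D1:**
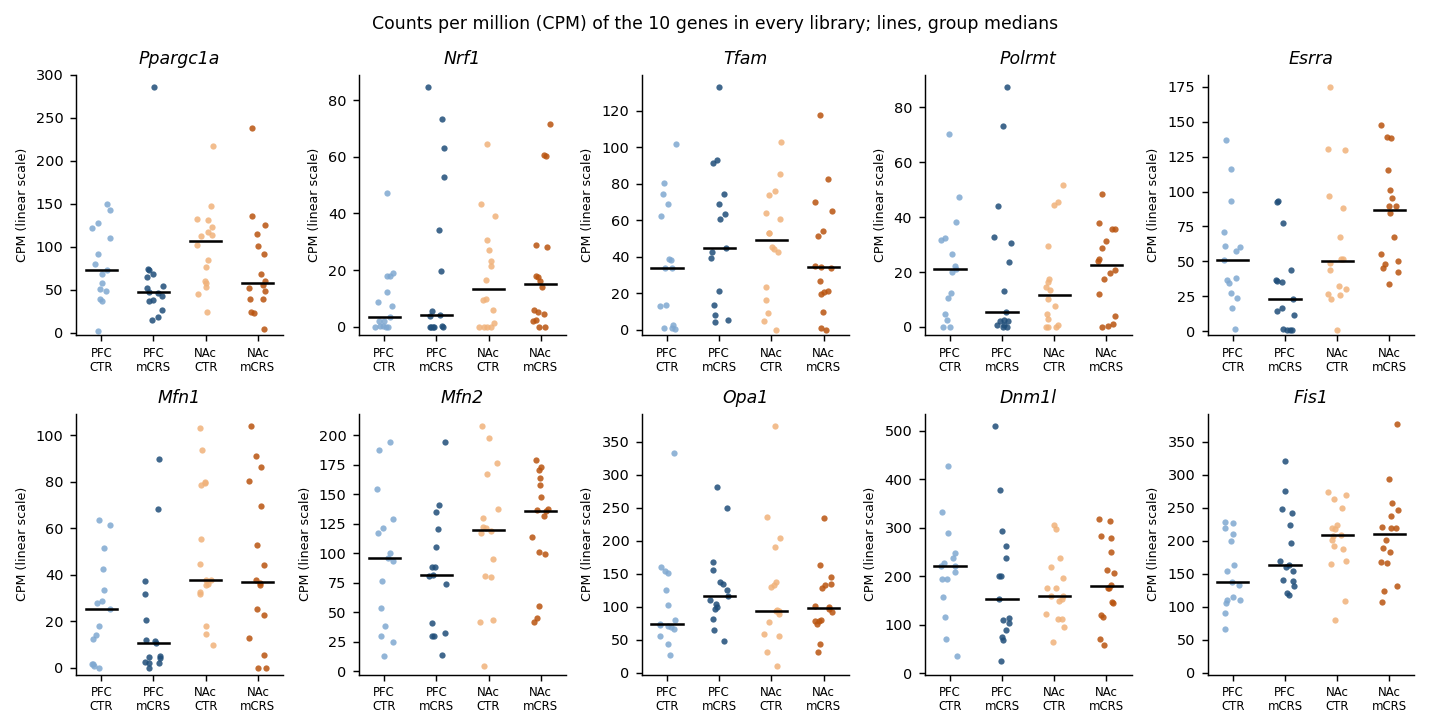
CPM (linear vertical axis) of each of the 10 genes in every library, 1 point per library and 1 column per group, with group medians as black lines. The groups overlap in every panel, and Nrf1, Polrmt, Tfam and Mfn1 have libraries at 0.

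Among the biogenesis genes, Ppargc1a encodes the coactivator PGC-1α (ENSMUSG00000029167, GRCm38 chromosome 5, 51454250 to 51567726, minus strand). In PFC CTR libraries it ran from 2.16 CPM through a median of 73.1 to 150.1 CPM, and in PFC mCRS libraries from 14.9 through 47.2 to 286 CPM. Of the 15 mCRS libraries, 3 lay above the CTR median, and 1 of them, PFC mCRS 12, held the highest value of either group. Its log2 fold change was -0.31 (SE 0.40, 95% interval -1.12 to 0.49). Esrra encodes estrogen-related receptor α (ENSMUSG00000024955, chromosome 19, 6910977 to 6921813, minus strand), a partner of that coactivator. Its values were 1.24, 51.3 and 137 CPM (lowest, median and highest) in CTR and 0.508, 22.8 and 93.4 CPM in mCRS libraries. In 4 mCRS libraries and 1 CTR library Esrra had at most 10 counts, where the mCRS group had the lower median total, and the ranges overlapped. The log2 fold change was -0.69 (SE 0.59, 95% interval -1.87 to 0.48). The last 1000 bases of Esrra overlap Trmt112 on the opposite strand, and whether the counting used strand is not stated, so reads of the pair may not be told apart.

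Nuclear respiratory factor 1, a transcription factor of genes for the respiratory chain, is encoded by Nrf1 (ENSMUSG00000058440, chromosome 6, 30047988 to 30153458, plus strand). It was the most thinly counted of the 10, with 0 counts in 14 of all 62 libraries and 215 at most. In the PFC its median was 3.42 CPM in CTR (0 to 47.3 CPM) and 4.19 CPM in mCRS libraries (0 to 84.8 CPM). PFC CTR 6 alone held 48.2% of the Nrf1 counts of its group. The log2 fold change, 1.42, had a standard error of 0.99 and a 95% interval from -0.56 to 3.40. Tfam encodes the protein that packs mtDNA and starts its transcription (ENSMUSG00000003923, chromosome 10, 71225464 to 71238280, minus strand), and Polrmt the mitochondrial RNA polymerase (ENSMUSG00000020329, chromosome 10, 79736123 to 79746581, minus strand). Tfam ran from 0.504 through 34.1 to 102 CPM in CTR and from 4.30 through 45.0 to 133 CPM in mCRS libraries, a log2 fold change of 0.59 (SE 0.59). Polrmt ran from 0 through 21.2 to 70.1 CPM in CTR and from 0 through 5.47 to 87.5 CPM in mCRS libraries. Its medians lay apart, but 7 mCRS libraries and 3 CTR libraries had at most 10 counts, where the mCRS group had the lower median total. The fitted log2 fold change of Polrmt was -0.08 (SE 0.84, 95% interval -1.77 to 1.61).

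Outer membranes of mitochondria are fused by the mitofusins and inner membranes by Opa1. Mfn1 (ENSMUSG00000027668, chromosome 3, 32529465 to 32579239, plus strand) had a median of 25.4 CPM in PFC CTR (0 to 63.8 CPM) and 10.5 CPM in PFC mCRS libraries (0 to 89.8 CPM), with a log2 fold change of -0.26 (SE 0.79). Mfn2 (ENSMUSG00000029020, chromosome 4, 147873599 to 147904704, minus strand), which also tethers mitochondria to the endoplasmic reticulum, had medians of 95.6 CPM (13.1 to 194.1) and 81.7 CPM (13.8 to 194.2), with a log2 fold change of -0.14 (SE 0.36). For both mitofusins the CTR and mCRS ranges overlapped, and 4 and 5 of 15 mCRS libraries lay above the CTR median. Opa1 (ENSMUSG00000038084, chromosome 16, 29579334 to 29654884, plus strand) went from 26.6 through 73.3 to 333 CPM in CTR and from 47.8 through 115.5 to 282 CPM in mCRS libraries. Of the 15 mCRS libraries, 13 lay above the CTR median, while PFC CTR 15 held the highest value of either group. The log2 fold change of Opa1 was 0.42 (SE 0.30, 95% interval -0.17 to 1.02, unadjusted p = 0.159).

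Division needs Drp1, the dynamin-related GTPase that constricts the organelle, and receptors on the outer membrane such as Fis1. Dnm1l, the gene of Drp1 (ENSMUSG00000022789, chromosome 16, 16312230 to 16358959, minus strand), ran from 35.1 through 220.2 to 428 CPM in CTR and from 24.9 through 153 to 511 CPM in mCRS libraries of the PFC. Both the lowest and the highest value belonged to mCRS libraries, and the log2 fold change was -0.10 (SE 0.29, 95% interval -0.68 to 0.48). A copy of 54 of its 3405 windows of 70 bases at the 3′ end (1.59%) stands in Gm13719, and reads from these would not be unique. Fis1 (ENSMUSG00000019054, chromosome 5, 136953275 to 136966234, plus strand) had the most counts of the 10 genes, with 103 to 1208 counts in every library. It ran from 66.2 through 137 to 228 CPM in CTR and from 118 through 163 to 321 CPM in mCRS libraries, and 12 of 15 mCRS libraries lay above the CTR median. Its log2 fold change was 0.37 (SE 0.22, 95% interval -0.07 to 0.81), with the smallest unadjusted p of the 10 genes in this contrast (p = 0.0941, edgeR).

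In the NAc, too, 0 of the 10 genes had an FDR below 0.05, where 0.00986% of the 10141 genes tested did, and 0 had an unadjusted p below 0.05, where 2.04% did (0.986% higher and 1.06% lower). The FDR of each was 0.99995. The 1 gene called was a choroid plexus marker, and it was not called without NAc mCRS 10. Nor was any gene called when 1 NAc CTR library other than NAc CTR 1 or 7 was left out. With DESeq2 the counts of the 10 genes were 0 and 0. After mCRS 6 fitted values lay above and 4 below 0, and the medians were 0.21 for biogenesis and 0.06 for fusion and fission, against -0.01 for all genes. The smallest unadjusted p was that of Ppargc1a, which ran from 23.8 through 106.9 to 217 CPM in CTR and from 4.50 through 57.5 to 238 CPM in mCRS libraries. Of the 16 mCRS libraries 4 lay above the CTR median, and the highest value was again an mCRS library, NAc mCRS 9. The log2 fold change was -0.39 (SE 0.33, 95% interval -1.06 to 0.28, p = 0.251, edgeR). Esrra showed medians of 50.1 CPM in CTR (0.570 to 175 CPM) and 87.1 CPM in mCRS libraries (33.6 to 148 CPM), and its log2 fold change was 0.40 (SE 0.36). Its ranges overlapped, with the lowest and the highest value both in CTR libraries.

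The best counted genes set the narrowest limits in the NAc. Fis1 had medians of 208 CPM in CTR (78.9 to 273 CPM) and 210.0 CPM in mCRS libraries (107 to 377 CPM), with a log2 fold change of 0.06 (SE 0.18, 95% interval -0.30 to 0.42). Its highest value was that of NAc mCRS 10, the library with choroid plexus markers, and without both libraries that stand apart the log2 fold change was -0.02. For Dnm1l the log2 fold change was 0.18 (SE 0.22, 95% interval -0.26 to 0.62), for Mfn2 0.11 (SE 0.28) and for Opa1 -0.22 (SE 0.30). Wider were those of Mfn1, -0.15 (SE 0.49), Tfam, -0.22 (SE 0.52), Polrmt, 0.40 (SE 0.76), and Nrf1, 0.21 (SE 0.80). Changes inside the 95% interval of a gene are not excluded by these data.

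**Figure D2:**
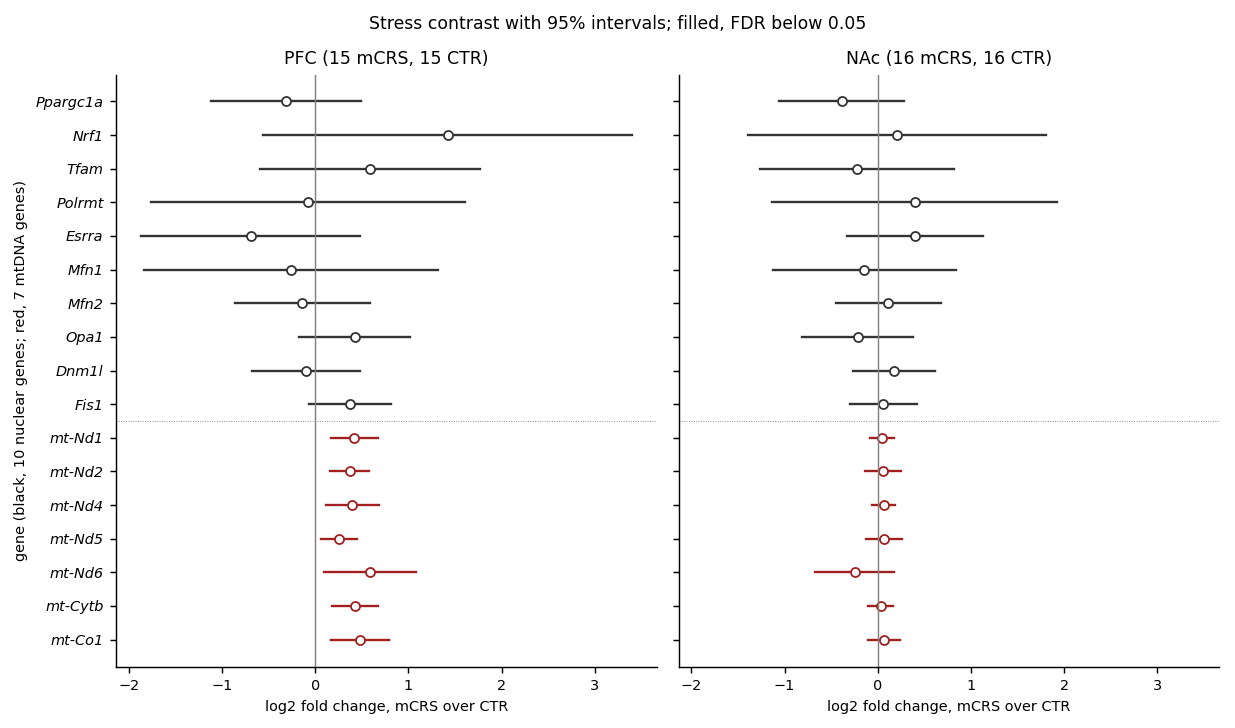
Log2 fold change of mCRS over CTR (horizontal axis) with its 95% interval for the 10 nuclear genes (black) and the 7 mtDNA genes (red), in the PFC on the left and the NAc on the right. All intervals of the 10 genes cover 0, all 7 mtDNA intervals in the PFC lie above 0, and no gene shown has an FDR below 0.05 (open circles).

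To see whether the mCRS effect depended on the region, 1 model of all 62 libraries with an interaction term was used. Of the 10 genes, 0 had an FDR below 0.05 (0.00907% of 11025 genes did) and 0 an unadjusted p below 0.05 (3.09% of genes did, 1.45% higher and 1.64% lower), by edgeR, and DESeq2 gave 0 and 0. With the replicate number as a block 1 gene, Esrra, had an unadjusted p below 0.05 (-1.54, SE 0.71, p = 0.0497, FDR = 0.9997, edgeR). The smallest p without the block was also that of Esrra, whose mCRS effect in the PFC minus that in the NAc was -1.10 on the log2 scale (SE 0.67, 95% interval -2.43 to 0.23, p = 0.104). For Opa1 the difference was 0.62 (SE 0.43, 95% interval -0.23 to 1.48, p = 0.151). Ppargc1a, with log2 fold changes of -0.31 and -0.39 in the 2 regions, had a difference of 0.07 (SE 0.52, 95% interval -0.96 to 1.11).

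The regions were then set against each other within CTR and within mCRS mice. Which PFC and NAc libraries came from the same mouse is not given, so they were taken as independent. In CTR mice 0 of the 10 genes passed an FDR of 0.05, against 6.32% of 9932 genes, and 0 an unadjusted p of 0.05, against 15% (8.79% higher and 6.22% lower, while DESeq2 gave 0 and 0). In mCRS mice 0 passed the FDR, against 6.31% of 9452 genes, and 1 the unadjusted p, against 14.8% (8.78% higher and 5.98% lower). That gene was Esrra, with a median of 22.8 CPM in PFC mCRS and 87.1 CPM in NAc mCRS libraries, and 2 of the 15 PFC libraries above the NAc median. Its log2 fold change of PFC over NAc was -1.19 (SE 0.50, 95% interval -2.19 to -0.19, p = 0.0226, FDR = 0.206, edgeR). Without NAc mCRS 10, Opa1 also had an unadjusted p below 0.05 (0.62, SE 0.28, p = 0.0298, FDR = 0.249, edgeR), where with it the value was 0.50 (SE 0.28, FDR = 0.419). For Esrra in CTR mice, where the medians were 51.3 and 50.1 CPM, the same value was -0.09 (SE 0.44, 95% interval -0.98 to 0.79). In CTR mice the smallest p was that of Dnm1l, with medians of 220.2 CPM in the PFC and 159 CPM in the NAc and a log2 fold change of 0.44 (SE 0.23, 95% interval -0.02 to 0.90, p = 0.0616, FDR = 0.372, edgeR). In mCRS mice its value was 0.16 (SE 0.28). Leaving out 1 library brought Dnm1l in CTR mice to an unadjusted p below 0.05 for 5 libraries, PFC CTR 1, 10 and 11 and NAc CTR 2 and 6, with log2 fold changes of 0.49 to 0.53 and FDR of 0.177 to 0.304 (edgeR).

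Mfn1 had its medians in the order NAc CTR (37.7 CPM), NAc mCRS (37.1 CPM), PFC CTR (25.4 CPM) and PFC mCRS (10.5 CPM). The log2 fold changes of PFC over NAc were -0.85 in CTR (SE 0.55, FDR = 0.550) and -0.96 in mCRS mice (SE 0.70, FDR = 0.635), neither past the FDR, and the 2 values next to each other in this order across regions and treatments (NAc mCRS and PFC CTR) were not tested. Fis1, with medians of 137, 163, 208 and 210.0 CPM in PFC CTR, PFC mCRS, NAc CTR and NAc mCRS, gave -0.27 (SE 0.20, FDR = 0.622) and 0.03 (SE 0.20, FDR = 0.979). Oligodendrocyte markers, which move with region, had median sums of 3398 and 3488 CPM in PFC CTR and mCRS and 7152 and 6956 CPM in NAc CTR and mCRS libraries, and their part in the region values was not tested.

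**Figure D3:**
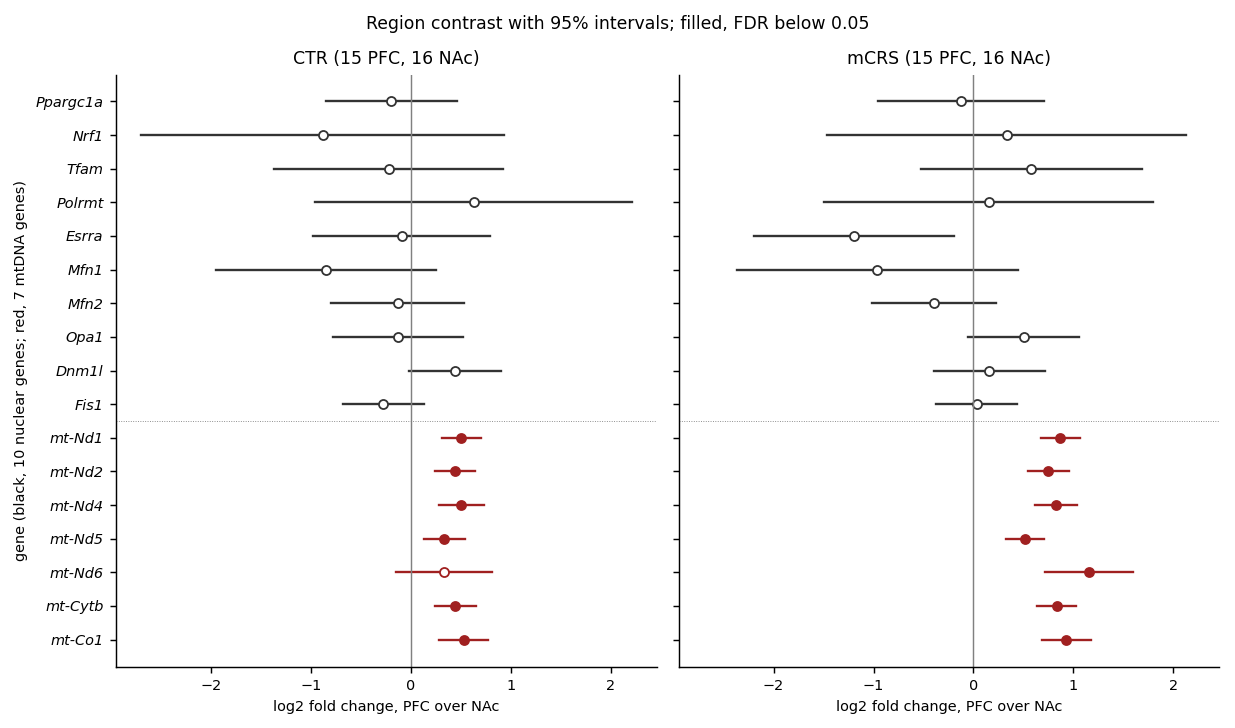
Log2 fold change of PFC over NAc (horizontal axis) with its 95% interval for the 10 nuclear genes (black) and the 7 mtDNA genes (red), in CTR mice on the left and mCRS mice on the right. Filled circles, with an FDR below 0.05, are found among the mtDNA genes, 6 in CTR and 7 in mCRS mice, and for none of the 10 nuclear genes.

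The other genes of the same pathways were read from lists of cofactors, mtDNA transcription, mtDNA replication, fission, fusion with cristae, and mitophagy with transport. In the stress contrasts 0 genes of these lists had an FDR below 0.05 in either region. Among 16 counted coactivators and transcription factors of biogenesis, 11 were tested in the PFC and 1 had an unadjusted p below 0.05, the corepressor gene Ncor1 (log2 fold change -0.49, SE 0.20, p = 0.0203, edgeR), against 3.5% of all genes. Ppargc1b, a close relative of Ppargc1a, had -1.48 (SE 0.79). In the NAc 15 of the 16 were tested and 0 had such a p. Of the lists of mtDNA transcription and mtDNA replication, 13 and 8 genes were tested in the PFC (19 and 13 in the NAc), and again 0 had an unadjusted p below 0.05. The median log2 fold changes of these 2 lists were 0.05 and 0.20 for the PFC, against -0.04 and 0.10 for the NAc.

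Fission and mitophagy partners gave the list genes that passed the FDR, all of them between regions. Mff, the main receptor of Drp1 on mitochondria, was higher in the PFC than in the NAc of CTR mice, with log2 CPM of 8.45 ± 0.33 (SD, n = 15) and 7.41 ± 0.53 (SD, n = 16). Its log2 fold change was 0.98 (SE 0.17, FDR = 5.7e-05, edgeR), while in mCRS mice it was 0.43 (SE 0.18, FDR = 0.195). The interaction of Mff was -0.55 (SE 0.25, unadjusted p = 0.0294, FDR = 0.99997, edgeR). Inf2, a formin that builds actin at sites of division, was lower in the PFC than in the NAc in both CTR mice (-1.28, SE 0.33, FDR = 0.00888) and mCRS mice (-1.49, SE 0.33, FDR = 0.00185). Bnip3, a receptor for mitophagy, was higher in the PFC in mCRS mice (1.29, SE 0.29, FDR = 0.00211) and had 0.37 in CTR mice (SE 0.28, FDR = 0.651). The interaction of Bnip3 was 0.91 (SE 0.42, unadjusted p = 0.0329, FDR = 0.99997, edgeR). A dependence of the region difference on mCRS thus passed no FDR for Mff or Bnip3. In the interaction 1 of 12 fission and 1 of 13 mitophagy genes had an unadjusted p below 0.05, against 3.09% of all genes. Of the 12 fission genes tested in CTR mice, 1 was thus called higher and 1 lower, against 4.23% and 2.09% of all genes. In mCRS mice 1 of 11 fission genes was called lower and 1 of 12 mitophagy genes higher, against 2.07% and 4.23%. Under RLE normalization the genes called higher and lower were 377 and 236 in CTR and 352 and 226 in mCRS mice, under TMM 420 and 208, and 400 and 196, while with DESeq2 they were 480 and 420, and 460 and 443.

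In the stress contrasts Bnip3 had 0.71 in the PFC (SE 0.27, unadjusted p = 0.0114, edgeR), with a mean log2 CPM of 6.88 ± 0.96 for CTR and 7.69 ± 0.67 for mCRS libraries (SD, n = 15 each). It was the 1 gene of 12 tested in its list with such a p, against 3.5% of all genes. From the fusion list Oma1, a protease that cuts Opa1, had -2.11 (SE 0.97, p = 0.0406, edgeR) and was the 1 gene of 16 tested, against the same 3.5%. In the NAc the genes with an unadjusted p below 0.05 were Mff (0.40, SE 0.18, p = 0.0314), the membrane scaffold gene Stoml2 (0.66, SE 0.32, p = 0.0430) and the protease gene Afg3l2 (-0.76, SE 0.37, p = 0.0463) by edgeR. These are 1 of 11 fission genes and 2 of 17 genes of the fusion list, against 2.04% of all genes.

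The 7 mtDNA genes counted were mt-Co1, mt-Cytb, mt-Nd6, mt-Nd5, mt-Nd4, mt-Nd2 and mt-Nd1. In the PFC all had higher fitted values after mCRS, by 0.25 to 0.59 on the log2 scale, each at an unadjusted p below 0.05 (mt-Nd2 had the smallest, p = 0.000708) and none below an FDR of 0.05 (mt-Nd2 had 0.560, edgeR). Of all genes tested in the PFC, 2.12% were higher at such an unadjusted p. For mt-Co1, a subunit of complex IV, the mean log2 CPM of CTR libraries was 11.76 ± 0.52 and that of mCRS libraries 12.22 ± 0.54 (SD, n = 15 each). Its log2 fold change was 0.48 (SE 0.15, FDR = 0.854). With the share of listed genes that had a count as a covariate, the 7 values in the PFC were 0.15 to 0.53, and 2 of them (mt-Nd2 and mt-Cytb) had an unadjusted p below 0.05. There mt-Co1 had 0.21 (SE 0.14), mt-Nd1 0.21 (SE 0.12) and mt-Nd4 0.16 (SE 0.13). Without PFC mCRS 14, mt-Nd6 went from 0.59 to 0.40 (p = 0.0973, edgeR). In the NAc the 7 values ran from -0.25 to 0.07, with 0 at an unadjusted p below 0.05, against 2.04% of all genes. The interaction was above 0 for all 7, and 4 of them (mt-Nd1, mt-Nd6, mt-Cytb and mt-Co1) had an unadjusted p below 0.05. Of all genes 3.09% had such a p (1.45% higher), and the FDR of each of the 7 was 0.99997 (edgeR). Between regions 6 of 7 passed the FDR in CTR mice (0.34 to 0.53 on the log2 scale, all higher in the PFC) and 7 of 7 in mCRS mice (0.52 to 1.16). Of all genes tested, 4.23% were called higher in the PFC in CTR mice and 4.23% in mCRS mice. The call of mt-Nd5 in CTR mice held in 24 of 40 settings and was lost with RLE normalization (FDR = 0.114) and DESeq2 (adjusted p = 0.180), and that of mt-Co1 held in 39 of 40. Since CPM values share one total, a high mtDNA share lowers the CPM of all other genes, and a ratio of this kind shows unequal change and not which side changed. With library sizes taken without the mtDNA genes, 0 of the 10 nuclear genes passed the FDR in any of the contrasts. TMM was applied there too, and the setting changed little. In the PFC stress contrast 311 genes had an unadjusted p below 0.05, where 312 had it in the analysis reported. It is therefore no separate check on the shared total.

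To relate the 10 genes to the mtDNA transcripts of each library, the mtDNA level was taken as the log2 of mtDNA counts per 1e+06 other counts. It was 17.14 ± 0.39 in PFC CTR and 17.51 ± 0.40 in PFC mCRS libraries (SD, n = 15 each), a difference of 0.37 (SE 0.14, p = 0.0149, two-sided permutation test). In the NAc it was 16.80 ± 0.21 and 16.85 ± 0.24 (SD, n = 16 each), a difference of 0.05 (SE 0.08, p = 0.561, same test). The ranges of CTR and mCRS overlapped in both regions. In PFC CTR the level was 16.57 to 17.05 up to number 8, save PFC CTR 1 (17.57), and 16.94 to 17.77 above. PFC mCRS libraries had 16.80 to 18.18 and 17.07 to 17.91. In NAc CTR the level was 16.88 to 17.08, save NAc CTR 7 (16.58), and 16.49 to 16.76, save NAc CTR 12 (17.04). NAc mCRS libraries had 16.73 to 17.23 and 16.39 to 16.77, save NAc mCRS 14 (17.08). The mCRS difference within each part of the numbering was not tested. The share of listed genes with a count was 87.1% ± 4.42 in PFC CTR and 82.3% ± 6.22 in PFC mCRS libraries (SD, n = 15 each). This share was 71.5% in the library of lowest total, NAc CTR 2, and 97.4% in that of highest total, NAc CTR 15. The part of depth in it was not tested. Across the PFC libraries, with group means removed, a higher mtDNA level went with fewer genes detected (r = -0.48, permutation p = 0.00791, adjusted over the 2 regions 0.0158, Spearman's rho = -0.48, p = 0.00916, adjusted 0.0183), and r was -0.60 without the 2 most distant libraries. In the NAc r was -0.34 (permutation p = 0.0627, adjusted 0.0627, rho = -0.28, p = 0.122, adjusted 0.122, and r = -0.23 without 2 libraries). The part of this in the values that follow was not tested beyond removing it by regression.

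**Figure D4:**
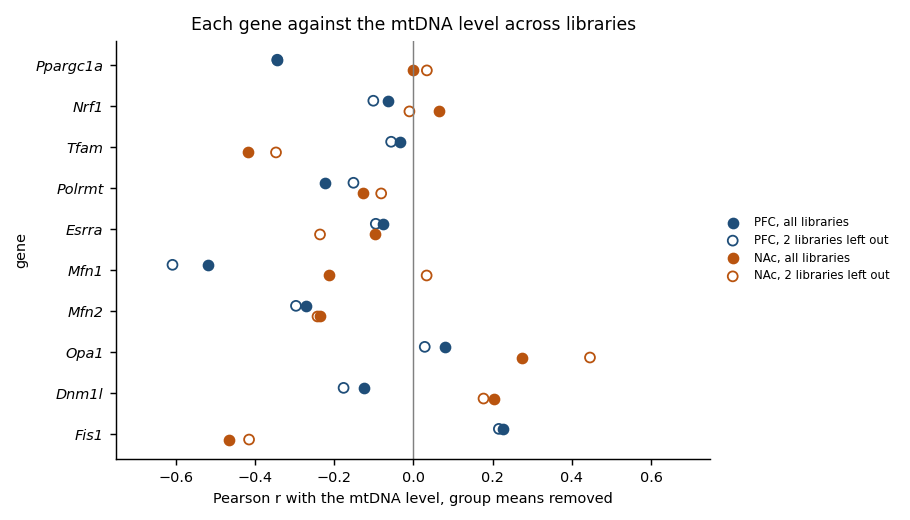
Pearson correlation (horizontal axis) of each of the 10 genes with the mtDNA level across 30 PFC libraries (blue) and 32 NAc libraries (orange), with group means removed. Filled circles use all libraries and open circles leave out the 2 libraries farthest from the median mtDNA level. Most values lie left of 0, with Mfn1 lowest in the PFC and Fis1 lowest in the NAc.

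Of the 10 genes r was below 0 for 8 in the PFC and 7 in the NAc, where 62.0% of 8909 and 63.9% of 10134 nuclear genes tested, the 10 included, lay below 0. For the CPM of the nuclear genes the mtDNA counts were kept out of the library size. At an unadjusted p below 0.05, 1 of 10 genes was related to the mtDNA level in the PFC, against 14.3% of all genes (9.06% with r below 0), and 2 of 10 in the NAc, against 9.44% (7.28%). All 3 had an r below 0. Without both NAc libraries that stand apart there were 3 in the NAc, the added gene being Opa1 with an r above 0 (r = 0.37, permutation p = 0.0453, adjusted over the 20 relations 0.227), where with them it had r = 0.27 (permutation p = 0.119). With the share of genes detected removed from both measures there were 2 in the PFC, Mfn1 and Fis1 (r = 0.36 for Fis1, permutation p = 0.0474, adjusted over the 20 relations 0.316), and 1 in the NAc, Fis1. With adjustment over all genes tested in the region 0 of the 10 had a p below 0.05, where 2.4% of all genes did in the PFC and 0% in the NAc. In the 20 relations of 10 genes and 2 regions taken alone, 0 had an adjusted p of Pearson's r below 0.05.

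Mfn1 had the lowest value in the PFC, r = -0.52 over 30 libraries (permutation p = 0.00395, adjusted over all genes 0.103, over the 20 relations 0.0746), and rho was -0.50 (p = 0.00638, adjusted over the 20 relations 0.0638). Without the 2 libraries farthest from the median mtDNA level r was -0.61, in CTR libraries alone -0.68 and in mCRS libraries alone -0.35. Among libraries numbered up to 8 it was -0.52 and among the others -0.39, so the sign held in each group and each part of the numbering. In PFC CTR libraries both measures moved with the numbering. Mfn1 had log2 CPM of 4.49 to 6.10 there up to number 8, save PFC CTR 1 (-0.17), and 0.84 to 6.24 above. The permutations were within groups only, so these p-values do not separate a shift with the numbering from a relation between single libraries. In the NAc r of Mfn1 was -0.21 (permutation p = 0.280, adjusted over all genes 0.777) and 0.03 without 2 libraries. Of all genes tested in the PFC, 1.77% had an r at or below that of Mfn1.

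In the NAc the lowest value was that of Fis1, r = -0.47 over 32 libraries (permutation p = 0.00746, adjusted over all genes 0.346, over the 20 relations 0.0746). Its rho was -0.59 (permutation p = 0.00056, adjusted over the 20 relations 0.0112). The permutations were within groups and not within parts of the numbering, with which both measures moved. In NAc CTR libraries Fis1 had log2 CPM of 6.44 to 7.94 up to number 8 and 7.78 to 8.17 above. The p-values therefore do not separate a shift with the numbering from a relation between single libraries. Both CTR libraries (r = -0.55) and mCRS libraries (r = -0.40) showed the sign, though the mCRS value was -0.18 without NAc mCRS 10, and libraries numbered up to 8 gave -0.10 and those above 8 gave -0.53. Without the 2 libraries farthest from the median, NAc mCRS 10 among them, r was -0.41, and with the share of genes detected removed from both measures it was -0.39 (adjusted over the 20 relations 0.316) and rho -0.36 (adjusted 0.325). In the PFC the r of Fis1 was 0.23 (permutation p = 0.232, adjusted over all genes 0.633), and the difference between regions was not tested. Tfam, whose protein packs mtDNA and starts its transcription, had r = -0.42 in the NAc (permutation p = 0.0184, adjusted over all genes 0.433, rho = -0.40, adjusted over the 20 relations 0.132) and -0.35 without 2 libraries. NAc libraries numbered up to 8 gave -0.23 for Tfam and those above 8 gave -0.27. With the share of genes detected removed, r over all NAc libraries was -0.29 (permutation p = 0.134, adjusted over the 20 relations 0.447). The r of Tfam with the share of genes detected was itself 0.55 in the NAc. In the PFC its r was -0.03 (permutation p = 0.857), and Polrmt, the polymerase itself, had -0.22 in the PFC (permutation p = 0.242) and -0.13 in the NAc (permutation p = 0.491).

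**Figure D5:**
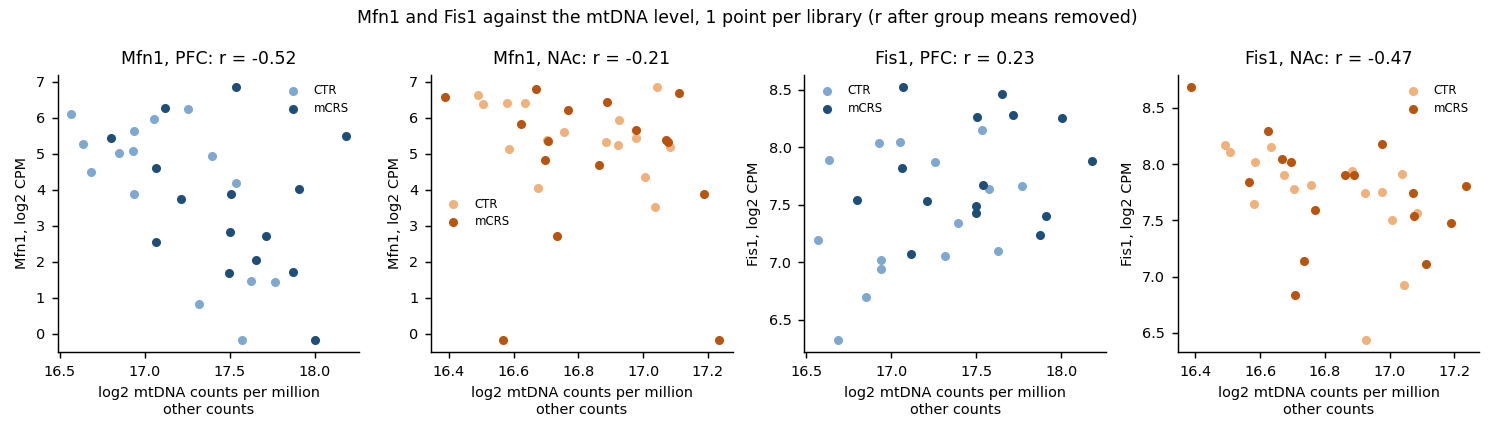
Log2 CPM of Mfn1 and Fis1 (vertical axes) against the log2 mtDNA level (horizontal axes), 1 point per library, in the PFC (blue) and the NAc (orange), with CTR in the lighter and mCRS in the darker color. The cloud of Mfn1 in the PFC (r = -0.52) and that of Fis1 in the NAc (r = -0.47) slope down, and those of Mfn1 in the NAc (r = -0.21) and Fis1 in the PFC (r = 0.23) are looser.

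Correlations among the 10 genes were low. Over the 45 pairs, with group means removed over all 62 libraries, the median r was 0.07 and 27 pairs lay above 0. At an unadjusted permutation p below 0.05 there were 4 pairs, and 0 when adjusted over the 45 pairs. With the share of genes detected removed there were 5 pairs, and again 0 when adjusted. The highest value was that of Esrra and Dnm1l, r = 0.42 (permutation p = 0.00258, adjusted 0.116, rho = 0.33, p = 0.0135, adjusted 0.304, and r = 0.38 without the 2 most distant libraries). Its values within groups went from 0.68 in PFC mCRS and 0.57 in NAc CTR to 0.11 in PFC CTR and -0.20 in NAc mCRS libraries. Ppargc1a and Polrmt, at r = 0.35 (permutation p = 0.00529, adjusted 0.119, rho = 0.34, p = 0.00646, adjusted 0.291, and r = 0.33 without 2 libraries), had values of 0.23 to 0.42 in each of the 4 groups. With the share of genes detected removed, this pair had r = 0.29 (permutation p = 0.0249, adjusted 0.374) and rho = 0.22 (p = 0.0805, adjusted 0.504). Esrra and Dnm1l then had r = 0.43 (permutation p = 0.00227, adjusted 0.102). Dnm1l and Fis1, both of fission, had r = -0.21 (permutation p = 0.120, adjusted 0.383, rho = -0.27, p = 0.0392, adjusted 0.441).

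Among 4445 genes with a mean log2 CPM of at least 5, those that varied most like the 10 genes are given as a description, without a test, since each is the highest of many correlations over the same 62 libraries. Ppargc1a went most with Tm9sf4 (r = 0.58), Pip4k2a (r = 0.56) and Tbc1d24 (r = 0.55), and Mfn1 with Mesd (r = 0.58), Ylpm1 (r = 0.53) and Tango2 (r = 0.53). Mfn2 went with Itpa (r = 0.58), Cacna1a (r = 0.57) and Cadps (r = 0.55), and Fis1 with Matr3 (r = 0.55), Iscu (r = 0.44) and Rplp0 (r = 0.44). The nearest genes were Susd4 for Nrf1 (r = 0.50), Rab21 for Tfam (r = 0.51), Aatk for Polrmt (r = 0.50), Trank1 for Esrra (r = 0.50), Tnrc18 for Opa1 (r = 0.44) and Vps53 for Dnm1l (r = 0.49). None of these is another of the 10 genes, of which Nrf1, Polrmt, Tfam and Mfn1 lay below that mean and could not be found by this search.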

How the data were processed

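BRB-seq counts of 62 libraries of PFC and NAc were re-analysed. The authors deposited raw counts per gene. According to the study's methods, reads were mapped with STAR to GRCm38 and unique reads were counted with htseq (HTSeq 0.9.1 in the submitters' processing notes), and 2 PFC samples of poor quality were removed. Molecular identifiers were not used, so intervals cover the spread between libraries but counts include PCR copies. Gene positions are those of GENCODE vM21, and 11120 of 11121 identifiers had a symbol.

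Contrasts were fitted on all genes with edgeR 4.0.16 (R 4.3.3): TMM, default filter by group, quasi-likelihood test, FDR threshold 0.05, 95% intervals from the fitted variance. Stress contrasts used 1 region each, the interaction all 62 libraries. CPM refer to all counts of a library, and log2 CPM used a prior count of 2. Permutation tests used 100000 resamples and were two-sided, within groups for correlations. Scripts were tested on simulated data. By the methods each library of a group comes from its own mouse, and which PFC and NAc libraries share a mouse is not given, so all were taken as independent. No 2 libraries were identical.

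Alternatives were RLE normalization, DESeq2 1.42.0, no filter, library sizes without mtDNA genes, covariates, the replicate number as a block, 1 fit for all groups (stress contrasts), and each library left out in turn (stress contrasts and the region contrast in CTR mice, not the interaction or the region contrast in mCRS mice). The 10 genes and the gene lists were chosen with earlier results of these data known. The text names all 10 genes, the mtDNA genes, up to 4 list genes past the FDR (otherwise at most 2 of smallest p) and the 3 most alike genes. Leaving out both NAc libraries that stand apart and relating all genes to the mtDNA level were chosen after seeing the data, as were the motifs printed.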

Additional observations from a re-analysis of the deposited data

Results flagged for a closer look

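The effect of mCRS on the mtDNA share of all counts differed between the regions at a p below 0.05 in percent, though not on the log2 scale. It was 3.16 percentage points in the PFC (16.04% ± 3.64 in mCRS and 12.9% ± 3.004 in CTR libraries, SD, n = 15 each) and 0.331 points in the NAc (10.6% ± 1.60 and 10.3% ± 1.31, SD, n = 16 each). The difference of 2.83 points had p = 0.0450 in a two-sided permutation test within regions. On the log2 scale of mtDNA counts relative to other counts, which the report uses, the same difference was 0.33 and had p = 0.0615. None of the 10 nuclear genes was flagged.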

How the results depend on the processing

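Of the 10 nuclear genes, 0 had an FDR below 0.05 in any of the 5 contrasts under the alternatives run for it. Leaving out 1 library at a time was run for both stress contrasts and for the regions in CTR mice, and not for the interaction or the regions in mCRS mice. In the PFC stress contrast 0 genes were called by the analysis reported, 1 with no filter, 1 with the replicate block, 5 with all 4 groups in 1 fit, and 0 to 2 when 1 library was left out. In the NAc stress contrast 1 gene was called, 2 with no filter or with all 4 groups in 1 fit, 0 with the replicate block, with either covariate, with DESeq2 or without both NAc libraries that stand apart, and 0 to 1 when 1 library was left out. The interaction went from 1 gene to 0 under the replicate block, and the region contrast in mCRS mice from 596 to 903 genes with DESeq2.

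The log2 fold changes whose direction turned passed no threshold under either setting. With genes detected as the covariate these were Tfam in the NAc stress contrast (0.088), Mfn1 in the interaction (0.17) and, for PFC over NAc in CTR mice, Tfam (0.36) and Mfn2 (0.18). Under the replicate block they were Opa1 between regions in CTR mice (0.020) and, in mCRS mice, Nrf1 (-0.96), Polrmt (-0.82) and Dnm1l (-0.081). Fis1 between regions in mCRS mice gave -0.026 with RLE and -0.026 with DESeq2. Without both NAc libraries that stand apart, Fis1 in the NAc stress contrast gave -0.024 and Ppargc1a in the interaction -0.033. When 1 library was left out, ranges that crossed 0 were those of Polrmt (-0.47 to 0.16) and Dnm1l (-0.27 to 0.00463) in the PFC stress contrast, Nrf1 (-0.060 to 0.49) and Fis1 (-0.021 to 0.11) in the NAc stress contrast, and Esrra (-0.24 to 0.10) and Opa1 (-0.37 to 0.069) between regions in CTR mice. The cause was not tested.

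With mtDNA measured as a mean of log2 CPM, 1 gene had an adjusted p of r below 0.05 in the PFC (Mfn1, r = -0.55, adjusted over the 20 relations 0.0408), and Opa1 there had r = -0.011. The permutations for Mfn1 were again not within parts of the numbering. With genes detected removed, r was 0.00516 for Nrf1 in the PFC and, in the NAc, 0.15 for Ppargc1a and 0.029 for Polrmt. Ppargc1a in the NAc gave 0.000658 on CPM of all counts and 0.12 with the mean log2 CPM, and Nrf1 in the NAc -0.050 without both libraries that stand apart. The mCRS effect on the mtDNA share differed between regions by 2.83 points (p = 0.0450), past the threshold that the log2 level missed.

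Same-numbered libraries did not deviate together: correlations of their deviations reached 0.142 at most, 1 of 15 pairs was over 0.1 between PFC CTR and PFC mCRS and 0 in the other group pairs, and 2 of 15, 2 of 16, 0 of 15 and 3 of 15 libraries were closest to their own number. The replicate block therefore stands for a number only. It changed no FDR call of the 10 genes and brought 1, Esrra in the interaction, to an unadjusted p below 0.05 (p = 0.0497). Nrf1 had 0 counts in 14 and Polrmt in 8 of 62 libraries.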
